A study of Mus musculus with 24 samples.

Results

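The leptin receptor, FGF21 and 6 other genes of the hormone axis that links the liver to fasting and feeding were followed through ribosome footprints in 24 mouse livers. They were taken by symbol from a table of 22429 genes, and all 8 passed the filter on low counts that left 12211 genes: the circulating signals Fgf21 and Gdf15, the receptors and co-receptor Lepr, Klb, Fgfr4, Gcgr and Insr, and the insulin receptor adaptor Irs2. The symbols were chosen by their group levels and changes in this same count table, with results in view, so their values are given as a description and without p-values. A gene is said to have passed, risen or fallen where edgeR's quasi-likelihood test gave it an adjusted p under 0.05 over all 12211 genes.

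All 24 mice were male F1 hybrids of C57BL6J and FVBN, with 4 livers in each of 6 groups. Wild types (Ercc1 +/+) were fed ad libitum to 16 weeks (young wild types) or 104 weeks (old wild types), or restricted in food and collected at 16 weeks. Ercc1 d/- mice, which carry 2 defective alleles of a subunit of a DNA repair nuclease in every tissue and age prematurely, were fed ad libitum to 7 or 16 weeks, or restricted and collected at 16 weeks. Restriction began in week 7 and reached 30% from week 9, mice were housed singly, meals normally came just before the dark phase, and no food was given on the day of collection. For mice fed ad libitum the labels give no time since they last ate. Whether the time since eating was alike in fed and restricted groups is therefore not known.

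Leptin is a hormone of fat tissue that reports energy stores, and its receptor signals through JAK2 and STAT3. The liver holds mostly shorter forms of this receptor and sheds a soluble form that binds leptin in blood. FGF21 is a hormone that the liver makes under fasting, protein shortage and cell stress, and GDF15 is a stress cytokine that acts on the hindbrain. Beta-klotho (Klb) is the co-receptor that lets FGF receptors bind FGF21, and together with FGFR4 it receives the intestinal hormone FGF15, which lowers bile acid synthesis in hepatocytes. Glucagon, through Gcgr, drives glucose output in fasting, while insulin, through Insr and the adaptors IRS1 and IRS2, opposes it after a meal.

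Levels are in CPM, the read count scaled by effective library size, and are compared within a gene, never between genes. Reads on all isoforms of a gene are counted together, so full-length and short leptin receptors are not separated. A footprint count does not tell a change in mRNA level from a change in translation, and in whole liver fewer cells of a type and less RNA per cell cannot be told apart. In GRCm38.p6, the build that the submitters' processing notes name, RefSeq places Lepr at chr4:101717137-101815352, Fgf21 at chr7:45613890-45615490, Klb at chr5:65348411-65386957 and Fgfr4 at chr13:55152818-55168759. Gdf15 lies at chr8:70629393-70632470, Gcgr at chr11:120529185-120538989, Insr at chr8:3150922-3279649 and Irs2 at chr8:10984681-11008929. Irs2 was the 1 member whose span overlaps another listed gene, 9530052E02Rik.

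Total counts ran from 13366558 to 27084259 per library. Ercc1 had 34 to 110 reads in the 12 wild-type libraries and 1 to 15 in the 12 mutant libraries. Albumin took 9.18 to 10.7% of reads in young wild types, 4.68 to 8.18% in old wild types, 14.2 to 18.6% in restricted wild types and 13.6 to 17.4% in restricted mutants. In fed mutants at 16 weeks the albumin share was 8.04 to 9.58%. All 8 hepatocyte markers in the table were above 0 in every group. They summed to 151809 to 163671 CPM in young wild types and 111313 to 149457 in fed mutants at 16 weeks, where 0 rose and 2 fell. Restricted wild types had 181410 to 249162 CPM and restricted mutants 169152 to 209389, with 1 marker higher and 3 lower in the mutants. In old wild types 2 of these markers rose and 1 fell. Macrophage markers (11 genes, none at 0 in any group) summed to 268 to 315 CPM in young wild types, 420 to 568 in old wild types and 325 to 488 in 7-week mutants. Their sum was 533 to 697 CPM in fed mutants at 16 weeks, 317 to 505 in restricted wild types and 532 to 676 in restricted mutants. Of these 11 macrophage markers, 11 rose in fed mutants against young wild types, 9 rose in old wild types, 2 in restricted wild types, and 5 were higher in restricted mutants than in restricted wild types. Stellate cell markers summed to 245 to 358 CPM in young wild types, 410 to 530 in fed mutants and 348 to 671 in restricted wild types, and 4 of 11 rose in each of these comparisons with young wild types. The 3 tested B and plasma cell markers all rose in old wild types, where the 8 on the list summed to 34.9 to 83.4 CPM against 1.40 to 4.23 in young wild types, and 2 rose in restricted wild types. Of 3 tested neutrophil markers 2 rose in old wild types and 2 in fed mutants. Over all genes, 10.7% passed in fed mutants, 9.34% in old wild types, 12.1% in restricted wild types and 18.2% between restricted genotypes. The part of these markers and of albumin in the results below was not tested.

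The promoters of Fgf21 and of Asns, the asparagine synthetase gene that serves here as a companion target of the stress factor ATF4, are shown because both hold a match to TGATGNAA, the composite element that C/EBP and ATF factors bind in amino acid response genes. Each run is the 250 bases before the RefSeq start site in GRCm38.p6, 5′ to 3′ on the gene's strand, with the match in capitals.
Fgf21 (chr7:45615491-45615740, minus strand): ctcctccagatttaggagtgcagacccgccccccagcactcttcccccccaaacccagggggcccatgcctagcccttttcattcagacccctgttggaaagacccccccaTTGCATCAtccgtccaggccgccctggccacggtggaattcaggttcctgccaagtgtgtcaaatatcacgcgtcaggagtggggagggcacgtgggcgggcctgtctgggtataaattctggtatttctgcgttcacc
Asns (chr6:7693210-7693459, minus strand): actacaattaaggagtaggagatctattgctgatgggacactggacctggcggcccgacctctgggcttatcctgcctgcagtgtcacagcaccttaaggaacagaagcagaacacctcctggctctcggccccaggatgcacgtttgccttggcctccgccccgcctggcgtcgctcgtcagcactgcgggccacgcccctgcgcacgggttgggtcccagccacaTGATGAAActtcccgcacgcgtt
The match in Fgf21 reads TTGCATCA, with the motif on the opposite strand, and begins at position -139 from the start site. The match in Asns reads TGATGAAA and begins at position -23. Promoters were found for 7 of the 8 members (not Insr), 9 windows in all, and Fgf21 was the 1 member with a match. Of these windows 4 lie outside the span of their gene. Both Lepr windows, the Gcgr window and 1 Gdf15 window lie wholly inside it, so no bases before the span of Lepr or Gcgr were searched. Of all 32851 promoters of this length, 3.45% hold TGATGNAA on either strand. The members' windows hold no match to the cAMP response half-site TGACGT, which 6.47% of all promoters hold, to the STAT site TTCNNNGAA, which 7.02% hold, or to the FOXO and FOXA site TGTTTAC, which 3.17% hold. All 4 motifs were searched on both strands and counted separately, so matches may overlap. These counts describe letters in a short window and say nothing of binding.

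Restriction of wild types raised Lepr 38.7-fold and lowered Gcgr 1.61-fold, and no other member passed. Of the 8 members, 2 passed, against 12.1% of all genes. The footprints of Lepr went from 5.33, 4.53, 7.92 and 11.1 CPM in replicates 1 to 4 of the young wild types to 374, 131, 293 and 309.5 CPM in the restricted wild types. Every restricted library lay above every fed one, and the lowest restricted library, replicate 2, still held 2418 reads on this gene against 74 to 198 in the young wild types. The log2 change was 5.27 ± 0.45 (SE), the fifth largest rise of all 12211 genes.

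Restriction of mutants raised Lepr 50.4-fold and Klb 2.15-fold and lowered Gcgr 1.36-fold, so that 3 of 8 members passed, against 11.6% of all genes. Lepr stood at 15.7, 9.44, 12.4 and 6.03 CPM in fed mutants at 16 weeks and at 823, 570.1, 293 and 503 CPM in restricted mutants. The libraries did not overlap, and the log2 change was 5.66 ± 0.45, rank 11 among the rises of all 12211 genes. Since Lepr was chosen with these changes in view, nothing is read from its rank in either genotype. Leprot, a neighbouring gene whose protein limits leptin receptor at the cell surface, had means between 2.57 and 3.68 CPM in all 6 groups.

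Among the fed groups Lepr gave no call. The old wild types were at 4.70, 9.87, 4.30 and 8.57 CPM (mean 6.86 ± 2.78, SD, n = 4), overlapping the young wild types (7.22 ± 2.96). Mutants at 7 weeks were at 4.97, 5.12, 2.71 and 5.22 CPM, all below the 4 fed mutants at 16 weeks, which averaged 10.9 ± 4.12 CPM. That difference, log2 1.26 ± 0.40, did not pass, although the libraries did not overlap, and it passed in DESeq2 (1.27) and with the compared libraries only (1.26). In order of the means, 7-week mutants were lowest, then old wild types, young wild types and fed mutants at 16 weeks, each overlapping the next, and a gap without overlap separated these from restricted wild types (277 ± 103 CPM) and restricted mutants (547 ± 219 CPM). The 2 restricted groups overlapped, since mutant replicate 3 lay among the wild types at 293 CPM. Their difference of log2 0.98 ± 0.37 did not pass in edgeR. It passed at 1.19 without that library, and in DESeq2 with all libraries (0.99).

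**Figure D1:**
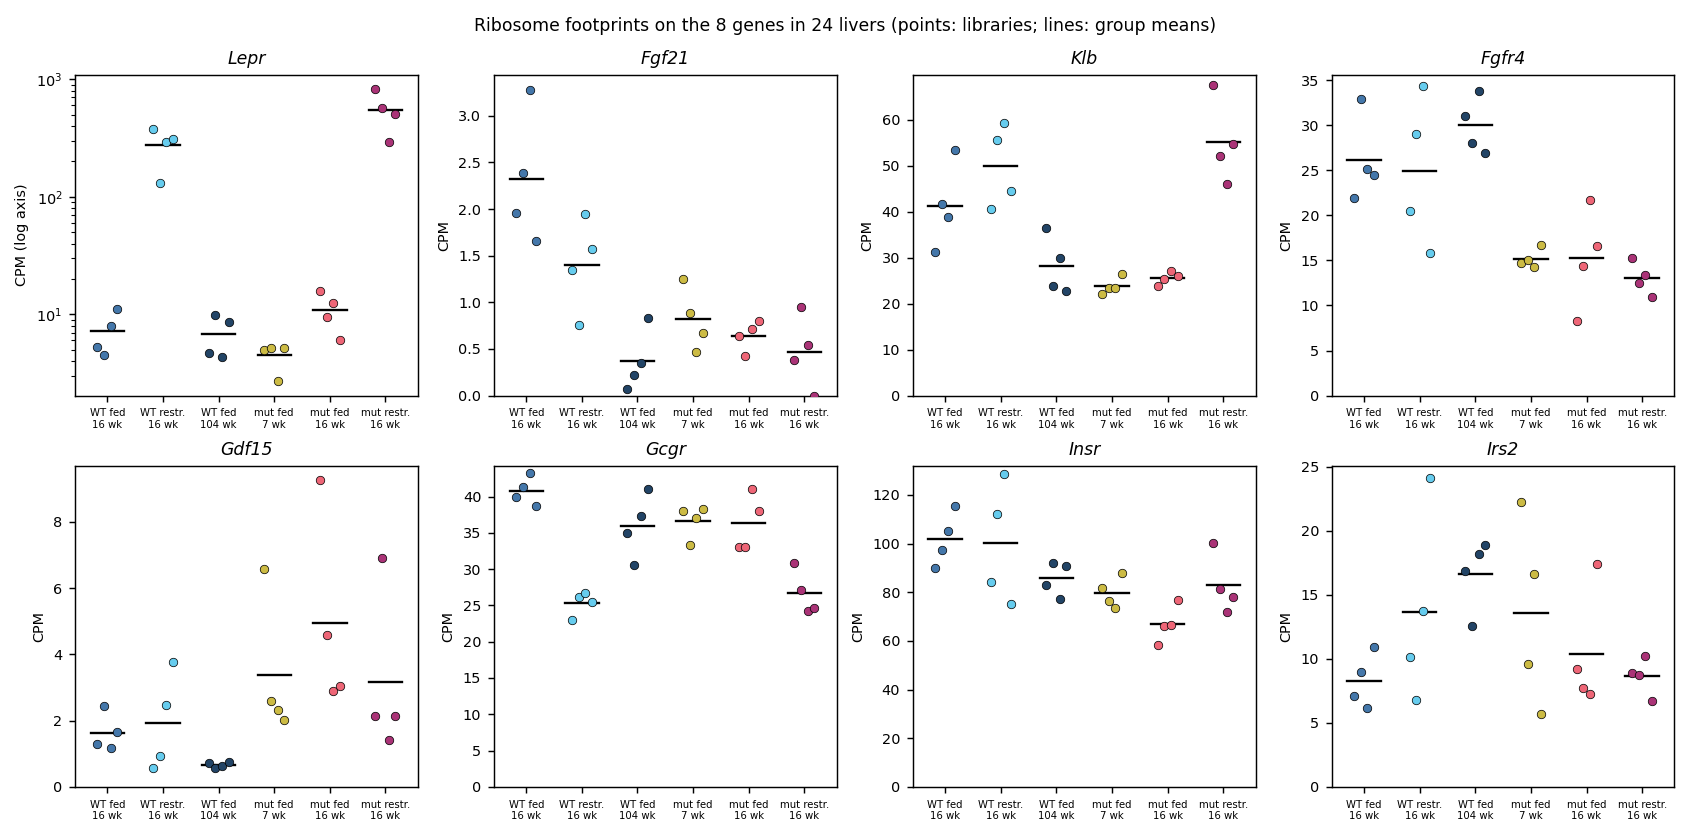
Footprint level in CPM of the 8 genes in each of 24 libraries, by group, with 1 point per library and a line at the group mean, and with a log axis for Lepr alone. The 8 restricted libraries of Lepr lie between 131 and 823 CPM and the 16 fed ones between 2.71 and 15.7 CPM.

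Of the 15 tested genes of leptin receptor signalling other than Lepr, 1 rose in restricted wild types and 2 rose in restricted mutants. The shares of all genes that passed there, in either direction, were 12.1% and 11.6%. Igfbp2, an insulin-like growth factor binding protein that leptin raises in liver, rose in both. It also rose in fed mutants against young wild types (log2 1.39, adjusted p = 0.00155, edgeR). Its response to restriction was smaller in mutants than in wild types (interaction log2 -1.64, adjusted p = 0.0364). In restricted wild types Igfbp2 went from 71.3 ± 5.75 to 477 ± 228 CPM (log2 2.74, adjusted p = 8.04e-07), and in restricted mutants from 187 ± 57.0 to 402 ± 118 CPM (log2 1.10, adjusted p = 0.00879). Socs2, a feedback inhibitor of JAK and STAT signalling, was the second gene in mutants (log2 2.80, adjusted p = 0.0194), and its call was lost without fed replicate 2, 3 or 4 or restricted replicate 1 or 2, at log2 values from 2.30 to 3.92 over all 8 fits without a library. The kinase Jak2 (log2 -0.24 and 0.14) and the feedback inhibitor Socs3 (log2 0.67 and -0.61) did not pass in restricted wild types or restricted mutants. In old wild types 2 of the 15 genes rose, where 9.34% of all genes passed in either direction. They were Socs3 (log2 3.48, adjusted p = 7.66e-05), from 1.22 ± 0.486 to 13.6 ± 8.28 CPM, and Stat3 (log2 0.92, adjusted p = 0.0189). In restricted wild types the count of rises was 2 without restricted replicate 2 or without restricted replicate 3. In mutants it was 1 without fed replicate 2, 3 or 4 or restricted replicate 1 or 2.

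Among the genes whose pattern over the 24 libraries was most like that of Lepr were Slco1a4, a transporter of organic anions, with Pearson's r of 0.96, Cyp39a1, an oxysterol hydroxylase (0.96), the flavin monooxygenase Fmo6 (0.95), and Atp1b1, a subunit of the sodium pump (0.91). These values describe 7988 genes compared on log2 CPM and are set by the gap between the 8 restricted and the 16 fed libraries. Within the 16 fed libraries r was 0.25, 0.46, 0.02 and -0.08 in the same order. Within the 8 restricted libraries it was 0.76, 0.28, 0.71 and 0.89. Fmo6 belongs to a family of similar genes, and how reads that fit several of them were counted is not given in the sources used here.

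Klb fell in fed mutants against young wild types and rose in mutants under restriction. Young wild types had 31.2, 41.7, 38.9 and 53.5 CPM, and fed mutants at 16 weeks had 23.8, 25.4, 27.1 and 25.9 CPM. No libraries of these groups overlapped, and the log2 difference of mutants from wild types was -0.69 ± 0.17, a 1.61-fold fall. The 7-week mutants, at 22.1, 23.4, 23.3 and 26.5 CPM, were at the level of the 16-week mutants (log2 0.10 ± 0.17 between the ages). The spread of Klb was narrow in both fed mutant groups, with a coefficient of variation of 7.85% at 7 weeks and 5.25% at 16 weeks, against 22.3% in young wild types.

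Under restriction the mutants' Klb stood at 67.5, 52.2, 45.9 and 54.6 CPM, above all fed mutants (log2 1.11 ± 0.17). In restricted wild types it was 40.6, 55.5, 59.2 and 44.6 CPM, which overlapped the young wild types (log2 0.28 ± 0.16, not passed). The 2 restricted groups overlapped as well (log2 0.14 ± 0.16). The response of mutants exceeded that of wild types by 0.83 ± 0.23 on the log2 scale, and this interaction did not pass. No member passed the interaction in edgeR, where 0.803% of all genes did. DESeq2 called 1 member, Klb, among 279 of all genes.

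In old wild types Klb had 36.3, 23.7, 29.8 and 22.8 CPM, of which 1 library lay inside the range of the young wild types. The fall was 1.46-fold (log2 -0.55 ± 0.17). It passed in 2 of the 8 fits that each left out a library, and was lost without old replicate 2, 3 or 4 and without young replicate 2, 3 or 4, at log2 values of -0.70 to -0.40 over the 8 fits. It was also lost with a replicate block (-0.55) and with the compared libraries only (-0.54).

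Fgfr4, the receptor that works with beta-klotho in hepatocytes, was lower in mutants than in wild types under both diets. Young wild types had 21.9, 32.9, 25.1 and 24.5 CPM and fed mutants at 16 weeks had 8.31, 14.4, 21.7 and 16.6 CPM. The groups came close but did not overlap, and the difference was log2 -0.77 ± 0.22, a 1.71-fold fall. The call was lost without mutant replicate 1 (log2 -0.57), which is the lowest library of all 24, without mutant replicate 2 (-0.75), without wild-type replicate 2 (-0.63) and with the compared libraries only (-0.76). Restricted mutants, at 15.3, 12.5, 13.3 and 11.0 CPM, lay below all restricted wild types at 20.5, 29.0, 34.3 and 15.8 CPM. Here the difference was log2 -0.93 ± 0.22, a 1.91-fold fall, and all 8 fits without a library kept the call. Restriction itself left Fgfr4 without a call in wild types (log2 -0.07 ± 0.22) and in mutants (-0.23 ± 0.22). Old wild types had 31.1, 28.1, 33.8 and 26.9 CPM, above every mutant library. The 7-week mutants had 14.7, 15.0, 14.2 and 16.7 CPM, below every fed wild type. Their replicate 4, at 16.7 CPM, lay above restricted wild-type replicate 4 at 15.8 CPM.

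Among 17 tested genes of FGF21 and FGF15 reception other than the members, 1 rose and 3 fell in fed mutants, and 5 rose and 2 fell in old wild types. Over all genes, 10.7% passed in fed mutants and 9.34% in old wild types, in either direction. Fgfr1, the receptor through which FGF21 acts with beta-klotho in fat and brain, was at 0.587, 0.429, 0.440 and 0.662 CPM in the young wild types. These levels are 15, 7, 11 and 8 reads, so changes of Fgfr1 against this group start from few reads. Fgfr1 rose in old wild types (log2 1.49, adjusted p = 0.00375) and in fed mutants (log2 2.11, adjusted p = 4.19e-05), and was higher in restricted mutants than in restricted wild types (log2 1.16, adjusted p = 0.00826). Fgfr3, another FGF receptor, fell in fed mutants (log2 -1.11, adjusted p = 0.00631) and was lower in restricted mutants than in restricted wild types (log2 -1.76, adjusted p = 4.36e-05). Cyp8b1, a bile acid synthesis enzyme that FGF15 represses, fell in old wild types from 474 ± 157 to 89.9 ± 43.4 CPM (log2 -2.40, adjusted p = 0.00138). In fed mutants the count of falls was 1 to 3 over the fits without a library, and moved without mutant replicate 1 or 3 or wild-type replicate 3 or 4. In old wild types the count of rises was 3 to 5 and moved without old replicate 1 or young replicate 1 or 3.

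Fgf21 was highest in young wild types, at 1.96, 2.39, 3.28 and 1.65 CPM, and lower in every other group mean. Old wild types had 0.0712, 0.218, 0.347 and 0.83 CPM, which is 1, 3, 5 and 12 reads. All 4 lay below all young wild types, and the fall was 6.25-fold (log2 -2.64 ± 0.57). It passed in all 8 fits without a library, at log2 values between -3.42 and -2.31. With Klb, Fgf21 made up the 2 of 8 members that passed with age, both lower, against 9.34% of all genes in either direction and 4.59% lower.

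Fed mutants at 16 weeks had 0.634, 0.422, 0.711 and 0.804 CPM of Fgf21, again all below the young wild types. The fall was 3.60-fold (log2 -1.85 ± 0.51). It passed in 5 of 8 fits without a library, and was lost without mutant replicate 1 (-1.84), mutant replicate 2 (-1.69) and wild-type replicate 3 (-1.63). Mutants at 7 weeks already had 1.25, 0.883, 0.463 and 0.669 CPM, and the step from 7 to 16 weeks was log2 -0.36 ± 0.54.

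Restriction did not bring a called change in Fgf21, whose log2 change was -0.73 ± 0.48 in wild types and -0.40 ± 0.56 in mutants. Restricted wild types had 1.34, 0.758, 1.94 and 1.58 CPM. Restricted mutants had 0.378, 0.945 and 0.545 CPM in replicates 1 to 3 and 0 reads in replicate 4, where 3 reads would stand for 0.208 CPM. Restricted mutants were lower than restricted wild types by log2 -1.51 ± 0.53, with 1 mutant library inside the wild-type range. That call held in 2 of 8 fits without a library and was lost without mutant replicate 1, 3 or 4 and without wild-type replicate 1, 3 or 4, at log2 values between -2.04 and -1.18. It was also lost with a replicate block (-1.51) and with the compared libraries only (-1.52). With 0 to 82 reads in a library, Fgf21 is the member with the fewest counts.

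**Figure D2:**
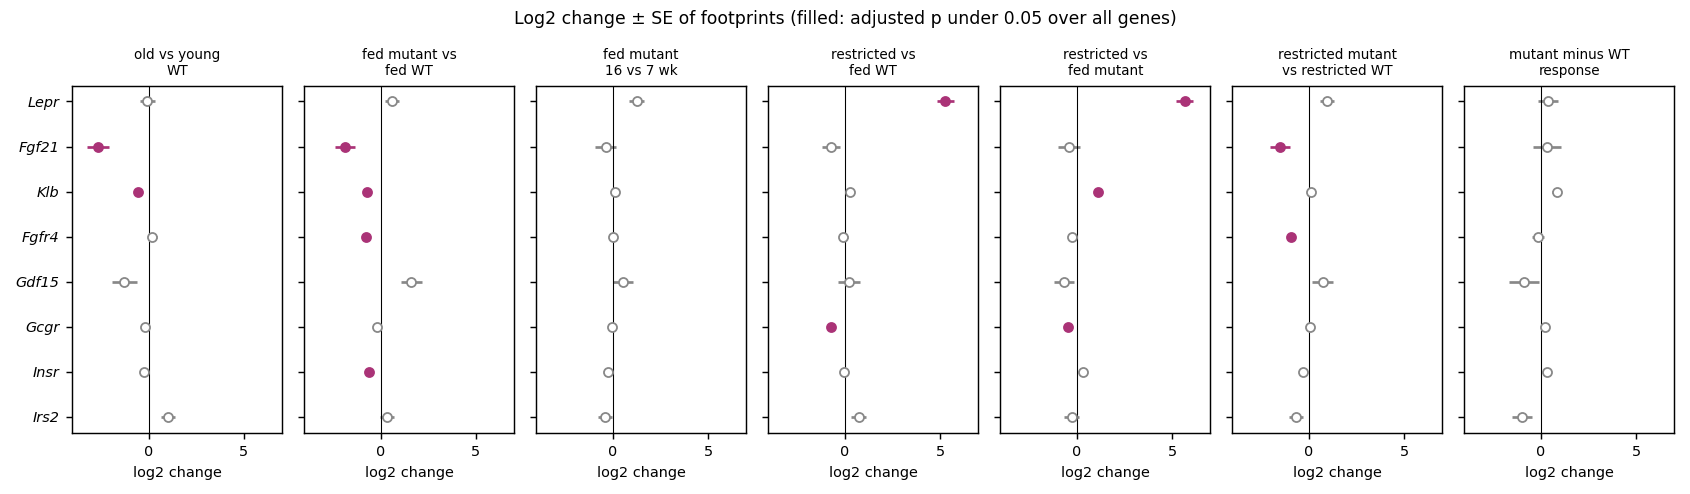
Log2 change ± SE of the 8 genes in the 7 comparisons, with filled points where the adjusted p over all 12211 genes was under 0.05 and open points elsewhere. Lepr stands at 5.27 and 5.66 in the 2 restriction panels, while Fgf21 is on the negative side in old wild types (-2.64) and in fed mutants (-1.85).

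Gdf15, the other circulating stress signal, passed in no comparison. Fed mutants at 16 weeks had 9.26, 4.59, 2.90 and 3.04 CPM and young wild types had 1.29, 2.45, 1.16 and 1.65 CPM. All mutant libraries lay above all wild types, and the mean was 3.04 times as high by the fit (log2 1.60 ± 0.56), but the difference did not pass, and its log2 value ran from 1.12 to 1.88 when a single library was left out. It passed in DESeq2 (1.60) and with the compared libraries only (1.62). Old wild types were lowest, at 0.712, 0.580, 0.624 and 0.760 CPM from 8 to 11 reads, also without overlap with the young wild types and also without a call (log2 -1.26 ± 0.65), though it passed with the compared libraries only (-1.25). These were the only neighbouring groups in the order of Gdf15 means that did not overlap.

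Restriction brought no call in Gdf15, at log2 0.22 ± 0.57 in wild types and -0.64 ± 0.53 in mutants. Restricted wild types had 0.556, 0.920, 2.47 and 3.76 CPM, and restricted mutants had 2.13, 6.90, 1.43 and 2.15 CPM. Single libraries were far above the rest of their group in restricted mutants (replicate 2) and in 7-week mutants, which had 6.57, 2.59, 2.31 and 2.01 CPM.

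Both hormones are targets of ATF4, and 18 other tested ATF4 targets were looked at beside them. In old wild types 2 rose, in fed mutants 1 rose and 1 fell, and between restricted mutants and restricted wild types 4 were higher and 1 was lower. The shares of all genes that passed, in either direction, were 9.34%, 10.7% and 18.2% in the same order. Asns had 0 to 5 reads per library in young wild types and 0.997 to 1.87 CPM in old wild types, a rise of log2 3.57 (adjusted p = 0.000138). It also rose in fed mutants, to 0.791 to 2.14 CPM (log2 3.49, adjusted p = 0.000107), and was higher in restricted mutants than in restricted wild types (log2 2.78, adjusted p = 0.000173). These fitted changes start from very few reads and depend on the model's handling of low counts.

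Psat1, a serine synthesis enzyme, was 0.588 ± 0.135 CPM in young wild types and 0.493 ± 0.130 CPM in fed mutants. It stood at 1.91 ± 0.893 CPM in restricted mutants, above fed mutants (log2 1.92, adjusted p = 0.00257) and above restricted wild types (log2 2.57, adjusted p = 0.000136). Vldlr, a lipoprotein receptor, was the ATF4 target that fell in fed mutants (log2 -3.83, adjusted p = 5.56e-06), and it rose in restricted mutants (log2 3.35, adjusted p = 3e-05). Its level was 4.43 ± 1.28 CPM in young wild types, 0.302 ± 0.0978 in fed mutants and 3.14 ± 0.846 in restricted mutants. Both changes thus rest on few reads in the fed mutants. The transsulfuration enzyme Cth rose in restricted mutants too (log2 1.60, adjusted p = 0.000101). Of the 22 genes of the full list, 18 have a promoter in the RefSeq table, and 7 of these hold TGATGNAA in the 250 bases, Asns and Vldlr among them, which is 38.9% against 3.91% of all genes. The rises in old wild types numbered 1 without young replicate 4, those in fed mutants 2 without mutant replicate 3 or wild-type replicate 1, and the falls between restricted groups 0 to 2, moving without mutant replicate 2 or 4.

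The activators of Fgf21 and Gdf15 formed a list of 20 genes, of which 1 rose in old wild types and 2 rose and 2 fell in fed mutants. Over all genes, 9.34% passed in old wild types and 10.7% in fed mutants, in either direction. Atf4 itself had means between 9.62 and 14.8 CPM and passed in none of the comparisons. Ppara, the nuclear receptor that induces Fgf21 in fasting, fell in restricted wild types from 145 ± 13.5 to 78.5 ± 32.0 CPM (log2 -0.89, adjusted p = 0.00667). In old wild types (log2 -0.51, adjusted p = 0.131) and in fed mutants (log2 -0.62, adjusted p = 0.0605) Ppara did not pass. Xbp1, a factor of the unfolded protein response, rose in old wild types (log2 0.99, adjusted p = 0.00306), and Eif2s1, whose protein is the target of the stress kinases upstream of ATF4, rose in fed mutants (log2 0.59, adjusted p = 0.00185). In fed mutants both counts were 1 or 2 over the fits without a library. The rises moved without mutant replicate 1 or 4 or any 1 of the 4 wild types, and the falls without any 1 of the 4 mutants or wild-type replicate 1, 2 or 4. In old wild types the count was 2 without old replicate 4.

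**Figure D3:**
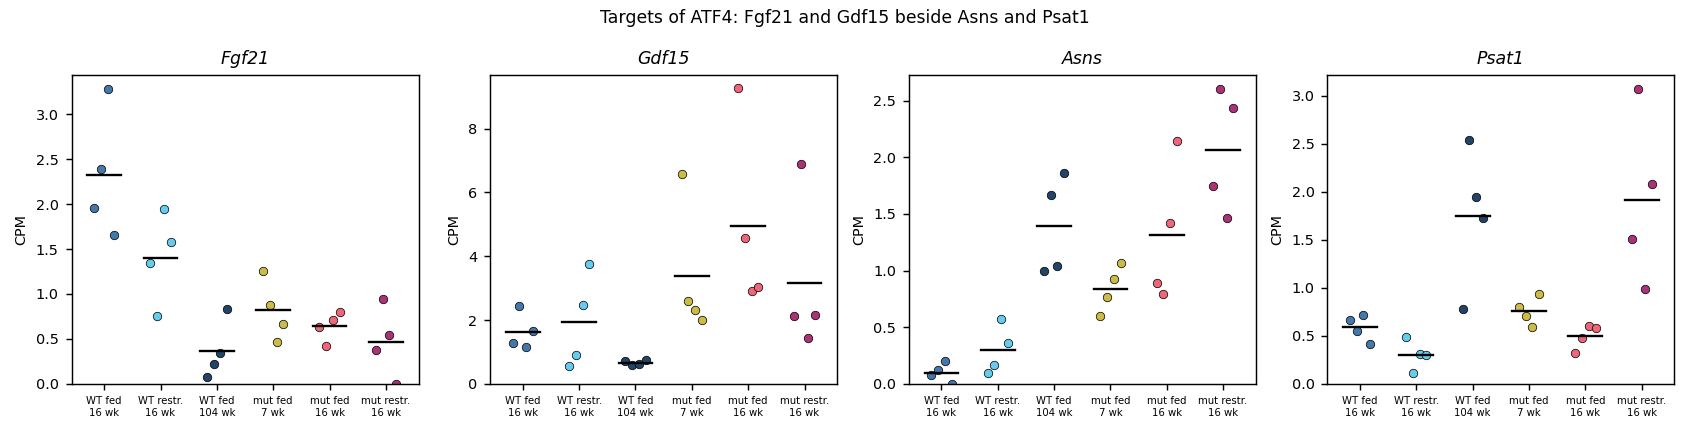
Footprint level in CPM of Fgf21, Gdf15, Asns and Psat1 in each library by group, with a line at the group mean. Fgf21 is highest in young wild types (mean 2.32 CPM), where Asns is lowest (mean 0.100 CPM), and Gdf15 is highest in fed mutants at 16 weeks (mean 4.95 CPM).

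The genes of the fasting response include targets of PPARA. Of 24 tested, 7 fell in old wild types and 5 fell in fed mutants, while under restriction 5 rose and 3 fell in wild types and 5 rose and 2 fell in mutants. Over all genes, 4.59% fell in old wild types and 5.04% in fed mutants. Under restriction 12.1% passed in wild types and 11.6% in mutants, in either direction. The fatty acid hydroxylase Cyp4a14 fell in old wild types (log2 -5.04, adjusted p = 1.13e-05) and in fed mutants (log2 -2.46, adjusted p = 0.00376), and rose in restricted wild types (log2 2.03, adjusted p = 0.0117) and restricted mutants (log2 3.63, adjusted p = 0.000126). The thioesterase Acot1 fell in old wild types (log2 -3.43, adjusted p = 2.49e-06) and in fed mutants (log2 -1.98, adjusted p = 0.000535). These comparisons share the young wild types or the fed mutants, so their values are set side by side and not counted as independent. Cyp4a14 has close paralogs, and reads that fit several were counted in a way that is not given in the sources used here. Without mutant replicate 3 or wild-type replicate 4 the count of falls in fed mutants moved, with a range of 3 to 5. In restricted wild types the rises ranged from 2 to 5 and the falls from 2 to 6, and moved without young replicate 1, 2 or 3 or restricted replicate 1, 2 or 4. In restricted mutants the falls were 1 or 2 and moved without fed replicate 1, 2 or 4 or restricted replicate 2 or 4.

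Gcgr fell with restriction in both genotypes and passed in no other comparison. Young wild types had 39.9, 41.3, 43.2 and 38.7 CPM and restricted wild types had 23.0, 26.2, 26.7 and 25.5 CPM. The groups were far apart for their spread, with coefficients of variation of 4.72% and 6.45%, and the log2 change was -0.69 ± 0.12. In mutants the level went from 33.0, 33.1, 41.1 and 38.0 CPM to 30.8, 27.1, 24.3 and 24.7 CPM, without overlap and with a log2 change of -0.44 ± 0.12. The mutants' call was lost without fed replicate 3, at log2 -0.37, and with the compared libraries only (-0.44), and the wild types' call was kept in all 8 fits without a library. The difference between the 2 responses, 0.25 ± 0.16, did not pass. Old wild types, at 34.9, 30.5, 37.3 and 41.0 CPM, and 7-week mutants, at 38.0, 33.3, 37.0 and 38.3 CPM, stayed above every restricted library but for 1 old library, which lay below 1 restricted mutant at 30.8 CPM.

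Of 22 tested genes of glucagon signalling other than Gcgr, 2 fell in restricted wild types, and 2 rose and 1 fell in restricted mutants. The shares of all genes that passed there, in either direction, were 12.1% and 11.6%. Gnas, which encodes the G protein that carries the glucagon signal, fell in restricted mutants (log2 -0.69, adjusted p = 0.00328), and Pde3b, a phosphodiesterase that breaks down cAMP, rose there (log2 0.93, adjusted p = 0.000526). Among the target enzymes of the fasted state, Pck1 (log2 -1.16 and -1.31, adjusted p = 0.267 and 0.216) and G6pc (log2 -0.24 and -0.75, adjusted p = 0.828 and 0.418) did not pass in restricted wild types or mutants. The falls in wild types numbered 0 to 2 over the fits without a library, and moved without young replicate 1 or 2 or restricted replicate 3 or 4. The rises in mutants numbered 1 or 2 and moved without fed or restricted replicate 1.

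Insr was lower in fed mutants than in young wild types, and the other comparisons gave no call. Young wild types had 90.1, 97.2, 105 and 116 CPM and fed mutants at 16 weeks had 58.2, 66.3, 66.5 and 76.7 CPM. The libraries were well separated, and the fall was 1.52-fold (log2 -0.61 ± 0.15), kept in all 8 fits. With Fgf21, Klb and Fgfr4, Insr made up the 4 of 8 members that passed in this comparison, all lower, against 10.7% of all genes in either direction and 5.04% lower. The 7-week mutants, at 81.9, 76.2, 73.4 and 87.7 CPM, overlapped the 16-week mutants (log2 -0.25 ± 0.15 between ages). Old wild types had 82.9, 92.0, 77.4 and 90.6 CPM (log2 -0.25 ± 0.15 from young).

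Under restriction Insr was 84.2, 112, 128 and 75.3 CPM in wild types, the widest group of this gene, and 100.4, 81.2, 71.8 and 78.1 CPM in mutants. Neither response passed, at log2 -0.03 ± 0.15 and 0.31 ± 0.15. Of 28 tested insulin signalling genes other than the members, 3 fell in fed mutants and 4 fell in restricted wild types. Over all genes, 5.04% fell in fed mutants, and 12.1% passed in restricted wild types in either direction. Phlpp1, a phosphatase of AKT, fell in fed mutants (log2 -0.76, adjusted p = 0.0165). The call of Phlpp1 was lost without mutant replicate 2 (log2 -0.70) and without mutant replicate 3 (log2 -0.67). Irs1, the other main adaptor, did not pass in fed mutants (log2 0.04, adjusted p = 0.961) or in restricted wild types (log2 0.88, adjusted p = 0.067). The falls in fed mutants numbered 0 to 3 and moved without mutant replicate 3 or wild-type replicate 1. Those in restricted wild types numbered 1 to 4 and moved without young replicate 1, 2 or 4 or restricted replicate 3 or 4.

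Of 18 tested genes that feeding and insulin induce, 6 fell in fed mutants, where 5.04% of all genes fell. Scd1, a fatty acid desaturase, fell from 7296 ± 1694 to 713 ± 304 CPM (log2 -3.36, adjusted p = 3.1e-05). The malic enzyme Me1 fell by 1.72 on the log2 scale (adjusted p = 0.00179) and the sterol regulator Insig2 by 1.69 (adjusted p = 0.000127). Of the same 18 genes 2 rose and 2 fell in restricted wild types, 3 rose in restricted mutants, 1 fell in old wild types, and 3 were lower in restricted mutants than in restricted wild types. Over all genes, 12.1% and 11.6% passed under restriction in wild types and mutants, in either direction. With age 4.59% fell, and 8.85% were lower between the restricted genotypes. In mutants restriction raised Scd1 to 2176 ± 478 CPM (log2 1.61, adjusted p = 0.013) and Insig2 to 64.3 ± 19.1 CPM (log2 0.99, adjusted p = 0.0142), the latter call being lost without restricted replicate 1. Angptl8, a liver protein that feeding induces, rose in restricted wild types (log2 2.38, adjusted p = 0.0165) and in restricted mutants (log2 2.01, adjusted p = 0.0388). Its call was lost without young replicate 4 in wild types, and in mutants in 5 of the 8 fits without a library, with a replicate block and with no filter. Mid1ip1, an activator of fatty acid synthesis, rose in restricted wild types (log2 1.74, adjusted p = 0.00738). Without 1 library the rises numbered 1 to 3 in both genotypes (1 without young replicate 4 in wild types and without restricted replicate 1 in mutants), and the falls in restricted wild types 0 to 2.

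Irs2, the adaptor that fasting signals induce and insulin represses, varied widely inside groups and passed in no comparison. Young wild types had 7.09, 8.94, 6.16 and 10.9 CPM and old wild types had 16.8, 12.6, 18.2 and 18.9 CPM. Every old library lay above every young one (log2 1.02 ± 0.38), without a call in edgeR over all libraries. The difference passed in DESeq2 (1.01) and with the compared libraries only (1.03). Restricted wild types had 10.1, 6.76, 13.7 and 24.1 CPM, and restricted mutants had 8.88, 8.74, 10.2 and 6.74 CPM. Fed mutants had 22.3, 9.60, 16.6 and 5.69 CPM at 7 weeks and 9.20, 7.75, 7.28 and 17.4 CPM at 16 weeks. Single libraries stood high in restricted wild types (24.1 CPM) and in 16-week mutants (17.4 CPM), and in the comparisons made, groups overlapped but for the old against the young wild types. Igfbp1, an insulin-repressed binding protein, was named after its values were seen. It spanned 2.07 to 847 CPM among the 4 old wild types and 1.84 to 219 CPM among the 4 restricted ones, and over the 24 libraries its r with Irs2 was 0.51, or 0.49 on deviations from the group means. The other 4 fasting genes set beside Irs2 gave r of 0.12 (G6pc), 0.10 (Pck1), -0.12 (Ppargc1a) and -0.08 (Sds) over the 24 libraries.

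In the comparison of fed mutants at 16 with 7 weeks no member passed in edgeR, where 0.434% of all genes did. DESeq2 called 1 member, Lepr, among 167 of all genes. Between restricted mutants and restricted wild types 2 of 8 members passed, Fgf21 and Fgfr4, both lower, against 18.2% of all genes in either direction and 8.85% lower.

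Since the members were chosen with these contrasts known, nothing is read from how many of them had groups without overlap. Libraries did not overlap for 5 of 8 members between fed mutants and young wild types, where this held for 22.2% of all genes, and for 3 of 8 between old and young wild types, where it held for 17.6%. Under restriction it held for 2 of 8 members in wild types and 3 of 8 in mutants, against 14.6% and 17.5% of all genes. It held for 1 of 8, Lepr, between mutants at 16 and 7 weeks (10.7% of all genes) and for 1 of 8, Fgfr4, between the restricted genotypes (15.2%). The median log2 change over the 8 members was -0.39 in fed mutants and -0.22 in old wild types, against 0.0067 and 0.015 for all genes.

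Across libraries the members were set against each other in pairs. The levels of Fgfr4 and Insr went together, with r of 0.65 in the 16 fed and 0.85 in the 8 restricted libraries, and 0.62 on deviations from the group means. Klb and Insr gave 0.66, 0.64 and 0.57 in the same order. The closest pair in the restricted libraries was Klb and Gcgr (0.86), which gave 0.42 in the fed libraries and 0.29 on deviations, and Fgf21 and Gcgr gave 0.68 in the fed and -0.03 in the restricted libraries. Lepr, whose gap between diets would set any pooled value, had r of 0.05 with Klb and -0.15 with Gcgr in the fed libraries and 0.28 and 0.42 in the restricted ones. Fgfr4 and Gdf15 ran in opposite directions over the 16 fed libraries (r = -0.84), which hold 4 groups of different genotype and age, and less so on deviations from group means (-0.31). All values are on log2 CPM, share library scaling, and come without a test.

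**Figure D4:**
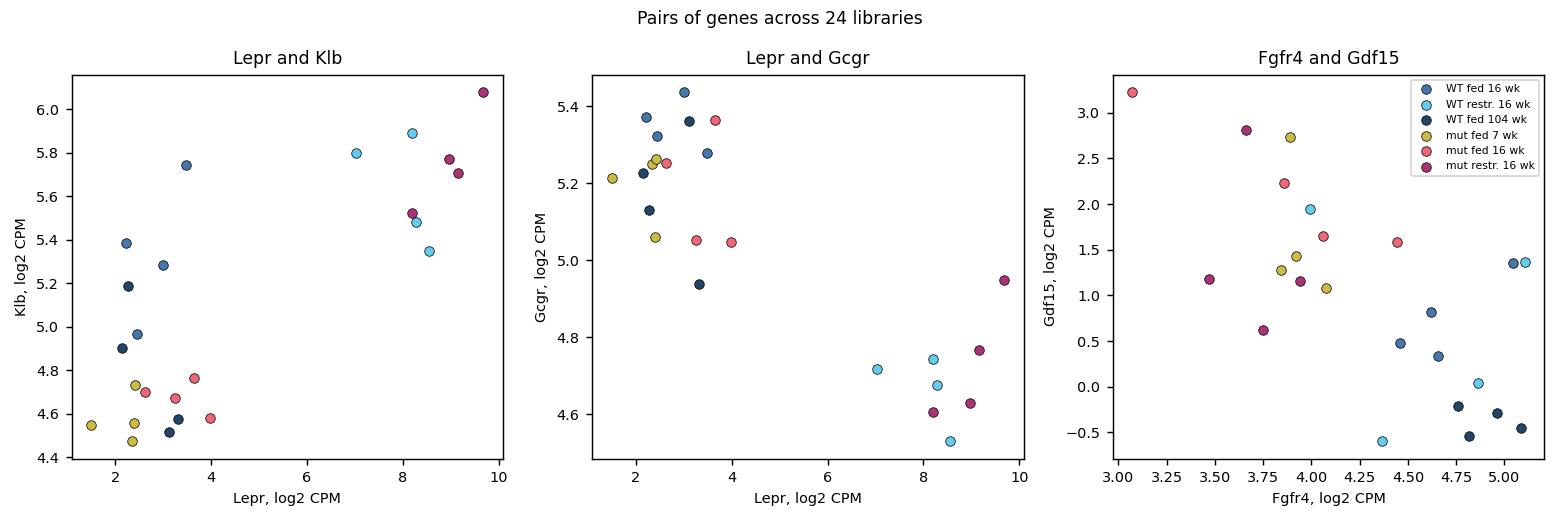
Log2 CPM of Lepr against Klb, Lepr against Gcgr and Fgfr4 against Gdf15, with 1 point per library coloured by group. The restricted libraries stand apart on the Lepr axis. In the last panel the mutants lie mostly at lower Fgfr4 and mostly at higher Gdf15 than the wild types (r = -0.84 over the 16 fed libraries).

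The genes most like the other members were found in the same way, over 24 libraries. For Fgf21 they were Chpt1, a phospholipid synthesis enzyme (r = 0.81, and 0.91 in the 16 fed libraries), Fcgrt (0.77), Ctse (0.75), Chrna2 (0.75) and Ak3 (0.75). For Gdf15 they were Iyd (0.83), Slc39a4 (0.79), Rdh5 (0.78), Spp2 (0.78) and F13b (0.77). Among those most like Klb were Cux2 (0.90) and Gstt3 (0.89), among those most like Fgfr4 were Ptprk (0.90) and Qdpr (0.86), and among those most like Gcgr were Mfsd3 (0.90) and Them7 (0.89). Values over 24 libraries include the differences between groups. Within the 16 fed and the 8 restricted libraries r was 0.73 and 0.66 for Cux2 and 0.78 and 0.39 for Gstt3. It was 0.86 and 0.99 for Ptprk, 0.89 and 0.79 for Qdpr, 0.64 and 0.68 for Mfsd3, and 0.58 and 0.48 for Them7. Insr was most like Samd8 (0.83), Chchd3 (0.79) and Apob (0.78), and Irs2 most like Cyp2c66 (0.66), Snrpc (0.65) and Cyp2c65 (0.65).

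Other hormones and receptors of the liver gave a measure of how common such changes were. Of 27 other tested hormone receptors, 2 rose and 4 fell in restricted wild types, and 2 rose and 4 fell in restricted mutants. The growth hormone receptor Ghr fell in both, from 179 ± 11.0 to 97.5 ± 36.0 CPM in wild types (log2 -0.88, adjusted p = 0.000809) and from 118 ± 9.61 to 55.9 ± 5.11 CPM in mutants (log2 -1.08, adjusted p = 6.77e-05). Avpr1a, a vasopressin receptor, rose in restricted wild types from 6.70 ± 2.85 to 43.8 ± 23.2 CPM (log2 2.73, adjusted p = 0.000106). Of 29 other secreted factors, 6 rose and 2 fell in restricted wild types and 4 rose and 3 fell in restricted mutants. The shares of all genes that passed in these comparisons, in either direction, were 12.1% and 11.6%. Serpina12, the adipokine vaspin, fell in both (log2 -2.79 and -2.77, adjusted p = 1.67e-05 and 8.46e-05). In wild types the receptors' falls ranged from 2 to 6 and moved without young replicate 1, and the rises of secreted factors ranged from 3 to 6 and moved without young replicate 1 or 3 or restricted replicate 4. In mutants the receptors' rises were 0 or 1 in every fit that left out a library.

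**Figure D5:**
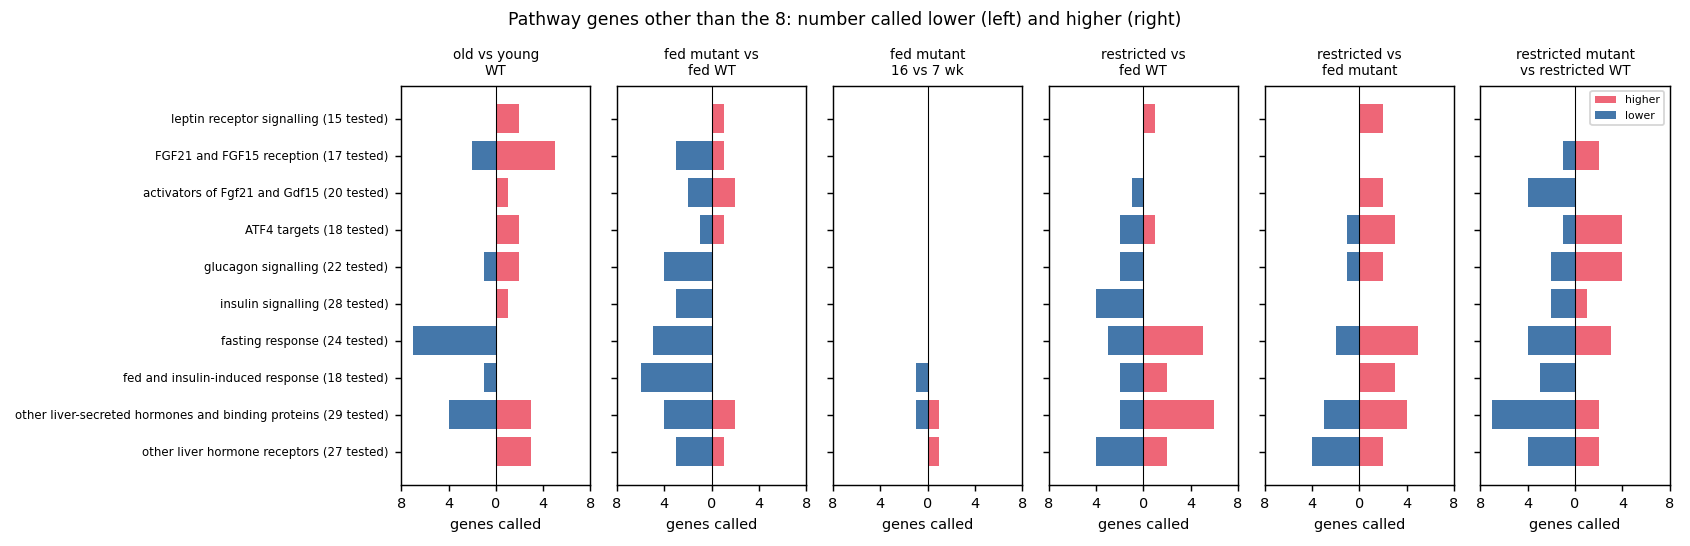
Number of genes with an adjusted p under 0.05, higher to the right and lower to the left, in each of 10 lists of related genes and 6 comparisons, without the 8 members. Fasting response genes fell in old wild types (7 of 24, against 4.59% of all genes) and in fed mutants (5 of 24, against 5.04%). Under restriction they rose and fell.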

How the data were processed

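Ribosome profiling of 24 livers gave 1 library per mouse. The table deposited by the authors holds whole, unnormalized read counts per gene, as its values show. The submitters' processing notes list cutadapt 3.4 and Trimmomatic 0.39 for trimming software, the aligners Bowtie2 2.4.2, STAR 2.7.8a and STAR 2.7.0f, and Subread 1.6.4 with featureCounts, on build GRCm38.p6. How strand and reads shared by several genes were handled is not given in the sources used here. A second table, of open reading frames, was not used here.

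Counts were analysed in R 4.3.3 with edgeR 4.0.16: filterByExpr over 6 groups (12211 genes of 22429), TMM scaling, and a robust quasi-likelihood fit of all 24 libraries by group with 18 residual degrees of freedom. Each of 7 contrasts was tested 2-sided, with Benjamini-Hochberg adjustment over all genes and a threshold of 0.05. SE is the log2 change divided by the square root of F. Log2 CPM used a prior count of 2. The procedure was tested on simulated data.

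The members and all gene lists were chosen with earlier results of these data known. Up to 3 genes with the smallest adjusted p were named per list and comparison. Leprot, Jak2, Atf4, Igfbp1, Pck1, G6pc, Ppargc1a, Sds and Irs1, Socs3 under restriction and Ppara outside restricted wild types were named after their values were seen. Likeness to a member used genes with a mean of at least 5 CPM in a group. Some genes that these rules select are not reported here. The labels number the 4 livers of a group, and p-values measure the spread between them. Chi-square tests of counts found no duplicated library. Alternatives were RLE and upper-quartile scaling, no filter, DESeq2 1.42.0, a replicate block, the compared libraries only, and each library left out.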

Additional observations from a re-analysis of the deposited data

Results flagged for a closer look

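Each of the 8 genes was examined in each of the 6 groups for a library that stands apart from the other 3, by the gap to its nearest neighbour over the range of the group (Dixon's criterion at 95%). This marked 3 of 48 groups, where chance marks about 1 in 20. In 7-week mutants, replicate 3 had 2.71 CPM of Lepr, against 4.97 to 5.22 CPM in the others. In the same group, replicate 1 had 6.57 CPM of Gdf15, against 2.01 to 2.59 CPM. Among restricted mutants, replicate 2 had 6.90 CPM of Gdf15, against 1.43 to 2.15 CPM.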

How the results depend on the processing

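All log2 changes of the 8 members kept their sign under every alternative run wherever they were called. Without 1 library at a time, the number of members called ran from 2 to 4 in fed mutants against young wild types (Klb and Insr in every fit), 1 to 2 with age, 2 to 3 in restricted mutants, 1 to 2 between restricted genotypes, and stayed at 2 in restricted wild types. Whether equal replicate numbers in the labels pair libraries was not settled. Deviations from group means of same-numbered libraries correlated at -0.19 to 0.25, over 0.1 in 6 of 24 pairs. In 9 of the 24 the own number gave the highest correlation among the 4 candidates. It did so for numbers 1, 2 and 4 with age and for 1, 3 and 4 in restricted against fed wild types. Between fed mutants and young wild types it did so for no number. A fit with the replicate number as a block left 1 member with age (Fgf21) and 1 between restricted genotypes (Fgfr4), and changed no other member's call. Fitting the compared libraries only also left 1 between restricted genotypes (Fgfr4) and gave 1 between mutants at 16 and 7 weeks (Lepr). It ended the calls of Fgfr4 in fed mutants, Gcgr in restricted mutants and Klb with age, and added Gdf15 with age (log2 -1.25). DESeq2 gave 1 between mutant ages (Lepr) and 1 in the interaction (Klb), and added Lepr between restricted genotypes (log2 0.99). RLE scaling, upper-quartile scaling and no filter changed no member's call. The call of Gdf15 in fed mutants appeared in DESeq2 (log2 1.60) and with the compared libraries only (1.62), and that of Irs2 with age in both (1.01 and 1.03). Over all genes, the compared libraries only gave 2138 calls in fed mutants in place of 1310, 436 between mutant ages in place of 53, 658 in restricted wild types in place of 1483, and 769 between restricted genotypes in place of 2227. DESeq2 gave 167 between mutant ages and 279 in the interaction, in place of 98. Without 1 library, the count over all genes ran from 806 to 1090 in fed mutants, 17 to 43 between mutant ages, 755 to 1034 with age, 941 to 1864 in restricted wild types, 934 to 1463 in restricted mutants and 61 to 205 in the interaction. The causes were not tested.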
